A study of Mus musculus with 78 samples.

Results

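The immediate early genes described here were 10 genes chosen by name: the zinc finger genes Egr1, Egr2 and Egr3, the AP-1 genes Fos, Fosb, Jun and Junb, and Ier2, Nr4a1 and Dusp1. All 10 were found among the 54435 gene IDs of the nascent RNA table and the 54446 gene IDs of the RNA-seq tables. The list was written after results of these data had been seen, and the contrast that led to it was not recorded. RNA values of the 10 genes are therefore given as descriptions, without a test, in every comparison.

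The cells were murine embryonic stem cells (mESCs, line V6.5) in which TRIM28 carried a tag knocked in at its own gene. TRIM28 is a corepressor that recruits heterochromatin proteins to endogenous retroviruses (ERVs), and the tag, an FKBP degron, lets the small molecule dTAG-13 send the protein for degradation. The tagged line was grown from a single picked colony, in serum/LIF medium, and was freed of feeder fibroblasts before treatment. Nascent RNA (TT-SLAM-seq, RNA labelled for a short pulse with 4-thiouridine) was measured in 3 libraries per group, for DMSO and for 500 nM dTAG-13 given 2 h, 6 h or 24 h earlier. Poly(A) RNA-seq of the same line had 3 libraries per group, for DMSO and for treatment of 2 h, 6 h, 24 h or 96 h. Poly(A) RNA-seq also covered 3 libraries of untreated parental V6.5 mESCs, whose labels describe culture on feeders, and 3 of neural progenitor cells (NPCs) of the V6.5 strain in DMSO. Total RNA-seq of the shREPEATS line, which carries hairpins against ERV families, had 3 libraries each for DMSO, dTAG-13 and dTAG-13 with doxycycline (Dox) at 24 h. The sample titles name Dox for the last group only, whereas the protocol label gives Dox pretreatment for all 3 groups. It is therefore unclear whether the DMSO and dTAG-13 groups of this line had Dox. As Dox is labelled a pretreatment, added Dox below names the last group and not a later step. ChIP-seq compared DMSO with 24 h of dTAG-13, with 3 libraries per group for H3K27Ac and H3K9me3 and 2 per group for RNAPII (Pol2) and MED23 (Med23). DMSO medium was added to the RNA-seq control 24 h before collection, so at 2 h and 6 h the time in dTAG-13 and the time since fresh medium cannot be told apart.

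Immediate early genes are switched on within minutes of a stimulus such as serum, a growth factor or stress, without new protein synthesis. Signals through ERK, SRF with its ternary complex factors, and CREB reach promoters that already hold RNA polymerase, and the transcripts made are short-lived. Most of the proteins are transcription factors that relay the signal to later genes, and some, such as DUSP1, switch the signal off. In mESCs, FGF4 made by the cells themselves keeps ERK active.

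The sequences just upstream of 4 of these genes hold motifs of some elements through which such signals are read. RefSeq windows (GRCm38.p6) were found for 7 of the 10 genes, and no entry was found for Egr1, Egr3 or Ier2. The bases before the transcript start are printed from 5′ to 3′ on the strand of the gene, with capitals for the motifs named in the next 4 sentences, and other motifs such as GGGCGG left in lower case. Fos (chr12:85473640-85473889, plus strand) has TGACG, the core of a cAMP response element (CRE), at 2 places and a TATAAA box. Junb (chr8:84978749-84978998, minus strand) has TGACG and CCAAT. Dusp1 (chr17:26508520-26508722, minus strand) has TGACG and the full CRE, TGACGTCA. The Egr2 window (chr10:67537316-67537565, plus strand) precedes an internal start, lies inside the deposited gene span, and has a CArG box, the binding motif of SRF. Among the windows of Egr2 it was picked because it holds that box.
Fos: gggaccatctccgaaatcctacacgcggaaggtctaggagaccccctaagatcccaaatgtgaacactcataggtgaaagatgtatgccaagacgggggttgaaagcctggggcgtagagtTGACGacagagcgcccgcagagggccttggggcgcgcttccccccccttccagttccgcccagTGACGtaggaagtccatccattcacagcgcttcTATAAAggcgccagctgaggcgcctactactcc
Junb: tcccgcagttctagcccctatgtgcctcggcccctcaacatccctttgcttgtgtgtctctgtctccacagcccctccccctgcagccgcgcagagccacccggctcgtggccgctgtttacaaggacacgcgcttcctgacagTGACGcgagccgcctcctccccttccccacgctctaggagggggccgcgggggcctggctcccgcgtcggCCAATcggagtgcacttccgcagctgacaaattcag
Dusp1: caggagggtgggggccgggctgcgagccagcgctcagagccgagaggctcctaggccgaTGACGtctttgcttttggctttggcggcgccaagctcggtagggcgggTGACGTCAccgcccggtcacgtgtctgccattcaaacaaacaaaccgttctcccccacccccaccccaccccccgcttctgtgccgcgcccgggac
Egr2: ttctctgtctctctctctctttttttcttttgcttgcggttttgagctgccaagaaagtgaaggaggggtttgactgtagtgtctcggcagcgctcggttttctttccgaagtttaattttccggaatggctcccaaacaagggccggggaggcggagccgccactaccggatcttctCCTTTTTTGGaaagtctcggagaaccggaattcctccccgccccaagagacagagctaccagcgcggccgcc

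Over the 250 bases before each start, TGACG or its complement CGTCA was found in 6 of the 7 matched genes, Egr2, Fos, Fosb, Junb, Nr4a1 and Dusp1, and in 17.8% of 32851 mouse promoters. The full CRE, which contains TGACG, was found in Dusp1 and in 1.55% of promoters, and a CArG box in Egr2 and in 1.47%. TATAAA, searched on the gene's strand only, was found in Fos and in 7.59% of promoters. CCAAT was found in Egr2, Jun and Junb and in 33.8% of promoters, and GGGCGG in all matched genes but Junb and in 32.7%. The AP-1 site TGACTCA or TGAGTCA was found in none of the 7, and in 4.46% of promoters. Apart from TATAAA, both strands were searched. A gene was counted when any of its windows held the motif, whereas the shares are over single windows. Egr2 had 5 windows, and the other matched genes had 1 each. The TGACG or CGTCA and CCAAT matches of Egr2 lay outside the window printed above. Bases more than 250 before a start were not searched. A match is a description of the letters only.

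In the files (mm10), the 10 genes lie on 9 chromosomes, with Junb and Ier2 both on chromosome 8. Egr1 spans chr18:34859823-34864984 (plus strand), Egr2 chr10:67535475-67542188 (plus), and Egr3 chr14:70077203-70082614 (plus). Fos spans chr12:85473890-85477273 (plus), Fosb chr7:19302696-19310051 (minus), Jun chr4:95049034-95052222 (minus) and Junb chr8:84974484-84978718 (minus). Ier2 spans chr8:84661331-84662852 (minus), Nr4a1 chr15:101254269-101274795 (plus) and Dusp1 chr17:26505590-26508519 (minus).

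Per the paper, TT-SLAM-seq gene counts use only reads with a T-to-C conversion. The FPKM were scaled to 6481999 to 24266191 reads per library, recovered from the deposited values. Replicate 3 of 24 h had the lowest of these totals. RNA-seq depth, read from gene coverage, ranged from 0.331 to 1.72 times that of the median library. Trim28 RNA is no direct check of the degron, which acts on the protein. Trim28 mRNA was 622, 622 and 626 TPM in DMSO and 186, 185 and 204 TPM after 96 h, a difference of -1.70 ± 0.05 (SE) on the log2 scale that passed the call rule used for genes outside the 10 (limma adjusted p below 0.05 over all genes and more than a 2-fold change). Summed over 8 mESC markers, mRNA was 4907 to 5329 TPM in DMSO, 3314 to 3664 TPM after 24 h and 413 to 487 TPM after 96 h, with no marker at 0. In NPCs the same sum was 414 to 432 TPM, with Pou5f1, Zfp42 and Utf1 at 0, and the sum over 8 NPC markers was 3560 to 3632 TPM. Summed over 10 fibroblast markers, mRNA was 24.1 to 24.8 TPM in DMSO, 33.0 to 35.4 TPM after 24 h and 296 to 320 TPM after 96 h. The part of these shifts in the results below was not tested, and in bulk samples fewer cells of a type and less RNA per cell cannot be told apart.

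Nascent RNA of all 10 genes was higher 2 h into treatment, in the sense that every 2 h library lay above every DMSO library. After 6 h the groups overlapped for all 10. After 24 h 8 of the 10 were again above DMSO in every library, with Fos highest of all its groups. Values are listed in replicate order, differences are on the scale of log2(value + 0.5), and FPKM here scale reads to the whole gene span, introns included.

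Egr1, a transcription factor of the growth factor response, measured 16.5, 10.3 and 4.96 FPKM in DMSO, 33.1, 38.3 and 42.8 FPKM at 2 h, 9.70, 18.1 and 28.6 FPKM at 6 h, and 26.7, 36.1 and 43.1 FPKM at 24 h. The 2 h and 24 h libraries lay above every DMSO library, whereas the 6 h libraries spread across the DMSO range and above it. On the log2 scale the differences from DMSO were 1.94, 0.82 and 1.81 at 2 h, 6 h and 24 h, each ± 0.45 (SE). The DMSO libraries themselves differed by more than 3-fold, and leaving out 1 library moved the 2 h difference to between 1.50 and 2.32.

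Egr2 and Egr3, close relatives of Egr1, were near the detection limit. Egr2 was counted in 2 to 5 reads per DMSO library, 7 to 21 at 2 h, 8 to 16 at 6 h and 34 to 49 at 24 h. That gave 0.0408, 0.0473 and 0.0653 FPKM in DMSO, 0.192, 0.0734 and 0.211 FPKM at 2 h, and 0.301, 0.247 and 0.827 FPKM at 24 h. Both treated groups lay above DMSO, at read numbers too low for the filter on low values. Egr3 was counted in 1 to 4 reads in DMSO, 7 in each library at 2 h, 5 or 6 at 6 h and 6 to 10 at 24 h, and its 24 h direction turned over when libraries were centred on their median gene (0.19 against -0.05).

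Fos, the partner of JUN proteins in AP-1, measured 2.55, 2.98 and 1.84 FPKM in DMSO, 4.21, 4.18 and 5.83 FPKM at 2 h, 2.92, 4.06 and 4.92 FPKM at 6 h, and 12.6, 13.5 and 20.3 FPKM at 24 h. Every 24 h library was above every other library of the series of 12, and the 2 h libraries lay above DMSO. Differences from DMSO were 0.83, 0.59 and 2.42, each ± 0.24, with 63 to 127 reads per DMSO library and 445 to 1037 at 24 h.

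Fosb, another FOS family gene, was counted in 10 to 14 reads per DMSO library and 37 to 51 at 2 h. It measured 0.261, 0.108 and 0.143 FPKM in DMSO, 0.309, 0.440 and 0.492 FPKM at 2 h, 0.0755, 0.164 and 0.279 FPKM at 6 h, and 0.196, 0.192 and 0.252 FPKM at 24 h. Only the 2 h libraries lay clear of DMSO, and Fosb did not pass the filter on low values.

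Jun measured 9.03, 7.19 and 5.75 FPKM in DMSO, 10.4, 9.85 and 10.8 FPKM at 2 h, 6.60, 8.33 and 8.60 FPKM at 6 h, and 15.0, 12.0 and 18.2 FPKM at 24 h. Junb, a JUN protein with weaker activating capacity, measured 5.44, 4.91 and 3.85 FPKM in DMSO, 10.3, 11.6 and 12.2 FPKM at 2 h, 5.19, 5.91 and 6.76 FPKM at 6 h, and 10.6, 10.5 and 16.5 FPKM at 24 h. For both genes the 2 h and 24 h libraries were above DMSO and the 6 h libraries overlapped it. Differences at 2 h and 24 h were 0.49 and 1.00 (± 0.19) for Jun and 1.19 and 1.29 (± 0.19) for Junb.

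Ier2, a short gene whose protein acts in the nucleus, had the highest FPKM of the 10 genes in DMSO, with 36.1, 30.9 and 28.1. It measured 51.0, 51.5 and 48.8 FPKM at 2 h, 26.7, 27.6 and 33.2 FPKM at 6 h, and 56.5, 54.8 and 80.5 FPKM at 24 h. Its 6 h libraries overlapped those of DMSO, while differences at 2 h and 24 h were 0.67 and 0.98 (± 0.17).

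Nr4a1, an orphan nuclear receptor, measured 0.661, 0.564 and 0.538 FPKM in DMSO, 1.07, 1.03 and 1.12 FPKM at 2 h, 0.701, 0.528 and 0.898 FPKM at 6 h, and 0.944, 0.902 and 0.887 FPKM at 24 h. The 2 h and 24 h libraries were above DMSO, by 0.53 and 0.38 (± 0.10). Dusp1, the phosphatase that turns off MAP kinases, measured 19.1, 17.2 and 14.2 FPKM in DMSO, 28.4, 25.9 and 29.6 FPKM at 2 h, 13.8, 20.6 and 23.8 FPKM at 6 h, and 16.5, 15.5 and 20.3 FPKM at 24 h. Here only the 2 h libraries stood above DMSO (0.73 ± 0.20), and the 24 h libraries lay among those of DMSO (0.05 ± 0.20, or -0.19 when libraries were centred).

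**Figure D1:**
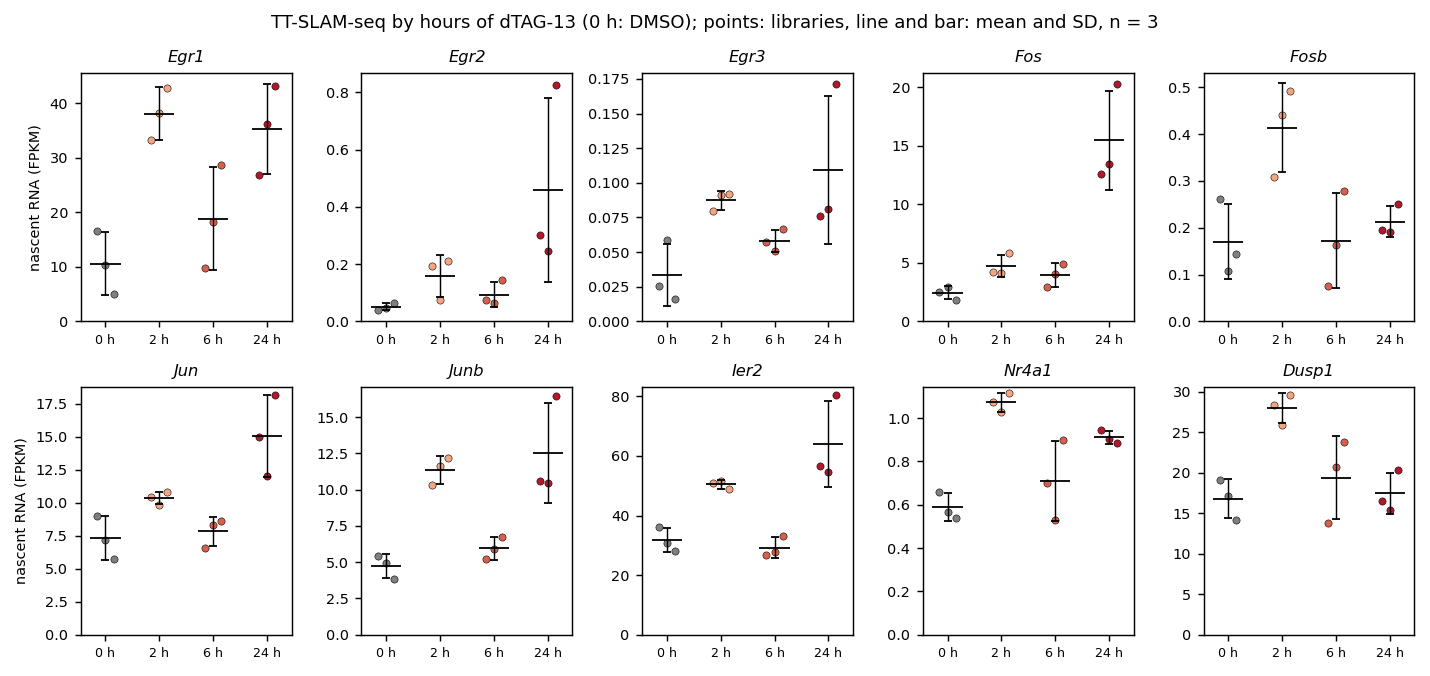
Nascent RNA in FPKM (y axis) of each of the 10 genes by hours of dTAG-13 (x axis, 0 h is DMSO), with points for the 3 libraries and line and bar for mean and SD. For all 10 genes the 2 h points lie above the 0 h points, and the 6 h points of every gene overlap those of 0 h.

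Counted together, 10 of 10 genes at 2 h had libraries wholly above DMSO, against 8.35% of the 13357 genes tested, and none wholly below (17.1% of genes). At 6 h it was 0 of 10 above and below, against 24% and 7.55% of genes. At 24 h it was 8 of 10 above and none below, against 41.1% and 8.52%. Only 7 of the 10 passed the filter on low values, as all tested genes did, Egr2, Egr3 and Fosb being left out. Of these 7, the number wholly above DMSO was 7, 0 and 6 at 2 h, 6 h and 24 h, with none wholly below. Median differences over the 10 genes were 0.60, 0.12 and 0.87 at 2 h, 6 h and 24 h, with all tested genes at -0.05, 0.06 and 0.21. These contrasts may be those that chose the genes, and nothing is read from the counts.

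Between 2 h and 6 h, 8 of the 10 genes were higher at 2 h in every library, against 5.3% of genes tested, with Egr2 and Fos as the exceptions. The 3 comparisons share the same DMSO libraries. At 24 h replicate 3, the library scaled to the fewest reads, gave the highest value for 9 of the 10 genes, the exception being Nr4a1. The share over all genes was not counted, so nothing particular to these genes is read from this. The median within-group SD of the 10 genes in TT-SLAM-seq was 0.24 on the log2 scale, and 8 of the 10 had a larger SD than the median of all genes, 0.15.

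Other immediate early genes were followed as a list of 51, of which 45 were tested in TT-SLAM-seq. Like the lists of signalling and heat shock genes below, it was written with earlier results of these data known. Counts and p-values of these lists, here and in the later comparisons, are therefore no independent test. At 2 h 3 rose and none fell, at 6 h 1 rose and none fell, and at 24 h 5 rose and 2 fell, where 0.127%, 0.374% and 2.49% of all genes tested were called higher and 0.0973%, 0.195% and 0.906% lower (limma, counts at an unadjusted p under 0.05 of 22, 11 and 29). Of all 13357 genes tested, 2830, 3544 and 6315 had an unadjusted p under 0.05 at 2 h, 6 h and 24 h. Median differences of the list were 0.28, 0.11 and 0.18. Spry4, an inhibitor of receptor tyrosine kinase signalling, rose at 2 h from 3.70 ± 0.74 to 15.3 ± 1.8 FPKM (SD, n = 3 each), a difference of 1.92 (limma adjusted p = 0.00076).

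Also at 2 h, Zfp36, which destabilises AU-rich mRNAs, rose by 1.26 (limma adjusted p = 0.030), and Dusp6, the phosphatase of ERK, rose by 1.11 (limma adjusted p = 0.027). Each lost its call when any of several libraries was left out, 5 for Zfp36 (DMSO replicates 1 and 2 and all 3 of 2 h) and 4 for Dusp6 (DMSO replicates 1 and 2, 2 h replicates 1 and 2). At 6 h Spry4 was still up by 1.03 (limma adjusted p = 0.0058), a call lost without DMSO replicate 2 or 6 h replicate 2 or 3, or when libraries were centred. At 24 h Jund rose by 1.32 (limma adjusted p = 0.0010), Zfp36 by 1.27 and Rhob by 1.21, the last not without 24 h replicate 3 or when libraries were centred. Myc fell by 1.13 (limma adjusted p = 0.0013), a call lost with a pseudocount of 1 (-0.946). Klf4, a pluripotency factor, fell by 1.02 (limma adjusted p = 0.0047). Its call was lost with a pseudocount of 1, or without DMSO replicate 1 or 2 or 24 h replicate 1 or 2.

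Of 30 genes of ERK, SRF and CREB signalling, 29 were tested in TT-SLAM-seq, and none was called at 2 h or 6 h by limma (7 and 13 at an unadjusted p under 0.05). Over all 13357 genes tested, 2830 and 3544 had such a p. At 24 h 1 fell, Fgf4, the growth factor that keeps ERK active in mESCs, from 4.07 ± 0.525 to 1.64 ± 0.05 FPKM (-1.09, limma adjusted p = 9.9e-05). That call was lost with a pseudocount of 1 (-0.938). Of 8 heat shock genes, 6 were tested. None was called at 2 h or 6 h (2 and 1 at an unadjusted p under 0.05), and Dnajb1, a co-chaperone, rose by 1.10 at 24 h (limma adjusted p = 0.00012), a call lost when libraries were centred (0.858).

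Steady-state mRNA differed from nascent RNA in direction for several genes. After 2 h mRNA of Egr3, Fos, Fosb, Junb, Ier2 and Nr4a1 was above DMSO in every library, while Egr1 and Dusp1 were below it and Egr2 and Jun overlapped. By 24 h the order had turned, with 6 genes below DMSO and Fos the single gene above it. After 96 h 7 genes were above DMSO and 3 below.

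Egr1 mRNA measured 18.0, 17.1 and 17.3 TPM in DMSO, 13.5, 13.4 and 12.3 TPM at 2 h, 13.3, 11.7 and 14.1 TPM at 6 h, 9.17, 7.80 and 8.43 TPM at 24 h, and 8.03, 7.39 and 6.97 TPM at 96 h. Every treated library was below every DMSO library, and the 2 h and 6 h groups overlapped each other. Differences from DMSO were -0.41, -0.41, -1.01 and -1.18 (each ± 0.08) at the 4 times, where nascent RNA at 2 h and 24 h was above DMSO by 1.94 and 1.81.

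Egr2 and Egr3 stayed below 1 TPM in every library of the time course. Egr2 measured 0.642, 0.778 and 0.759 TPM in DMSO and 0.300, 0.270 and 0.214 TPM at 24 h. Egr3 measured 0.0876, 0.101 and 0.240 TPM in DMSO, 0.667, 0.635 and 0.800 TPM at 2 h, 0.192, 0.116 and 0.238 TPM at 24 h, and 0.692, 0.846 and 0.448 TPM at 96 h. The 2 genes differed in direction, Egr2 being lower at 24 h and 96 h and Egr3 higher at 2 h, 6 h and 96 h, although neither passed the filter on low values.

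Fos mRNA measured 5.64, 5.09 and 6.06 TPM in DMSO, 7.26, 7.62 and 7.36 TPM at 2 h, 5.81, 7.19 and 7.56 TPM at 6 h, 27.3, 24.8 and 22.9 TPM at 24 h, and 40.6, 39.1 and 38.3 TPM at 96 h. The 24 h and 96 h groups stood apart from the earlier ones and from each other. Differences were 0.38, 0.27, 2.06 and 2.71 (each ± 0.09), and at 24 h both nascent RNA (2.42) and mRNA were above DMSO for Fos alone among the 10 genes.

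Fosb mRNA measured 0.546, 0.560 and 0.499 TPM in DMSO, 0.801, 0.790 and 1.22 TPM at 2 h, 0.641, 0.575 and 0.571 TPM at 6 h, 0.148, 0.222 and 0.242 TPM at 24 h, and 4.90, 4.70 and 4.34 TPM at 96 h. It was lowest at 24 h and highest at 96 h, with no overlap between those groups and DMSO. Fosb passed the filter on low values through the 96 h libraries, so its 96 h difference of 2.31 ± 0.12 was favoured by that filter.

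Jun mRNA measured 20.3, 20.6 and 19.5 TPM in DMSO, 21.4, 20.2 and 22.0 TPM at 2 h, 24.5, 25.8 and 25.8 TPM at 6 h, 18.2, 18.9 and 20.5 TPM at 24 h, and 91.7, 91.4 and 89.3 TPM at 96 h. DMSO, 2 h and 24 h overlapped, and 96 h stood far above (2.15 ± 0.05). Junb mRNA measured 49.4, 50.8 and 48.6 TPM in DMSO, 67.9, 69.3 and 68.8 TPM at 2 h, 57.4, 61.8 and 63.2 TPM at 6 h, 46.1, 47.7 and 51.5 TPM at 24 h, and 135, 133 and 133 TPM at 96 h. Its groups were ordered 96 h, 2 h, 6 h and then DMSO with 24 h, the last pair overlapping.

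Ier2 mRNA measured 103, 106 and 104 TPM in DMSO, 148, 143 and 140 TPM at 2 h, 99.6, 122 and 107 TPM at 6 h, 66.5, 62.9 and 67.6 TPM at 24 h, and 74.7, 69.2 and 70.8 TPM at 96 h. It was above DMSO at 2 h (0.46 ± 0.06) and below it at 24 h (-0.67) and 96 h (-0.54), whereas its nascent RNA at 24 h was above DMSO by 0.98.

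Nr4a1 mRNA measured 22.3, 23.7 and 22.4 TPM in DMSO, 32.6, 34.8 and 33.5 TPM at 2 h, 27, 25.6 and 26.6 TPM at 6 h, 19.9, 22.0 and 21.6 TPM at 24 h, and 31.5, 31.4 and 33.0 TPM at 96 h. The 24 h group lay just below DMSO (-0.10 ± 0.05) and the others above it. Dusp1 mRNA measured 67.0, 70.0 and 68.7 TPM in DMSO, 52.5, 51.9 and 55.4 TPM at 2 h, 57.8, 58.1 and 58.1 TPM at 6 h, 48.2, 43.7 and 43.6 TPM at 24 h, and 77.4, 76.4 and 79.1 TPM at 96 h. It was below DMSO up to 24 h (-0.60 ± 0.04) and above it at 96 h by 0.18, a direction that turned to -0.10 when libraries were centred on their median gene.

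**Figure D2:**
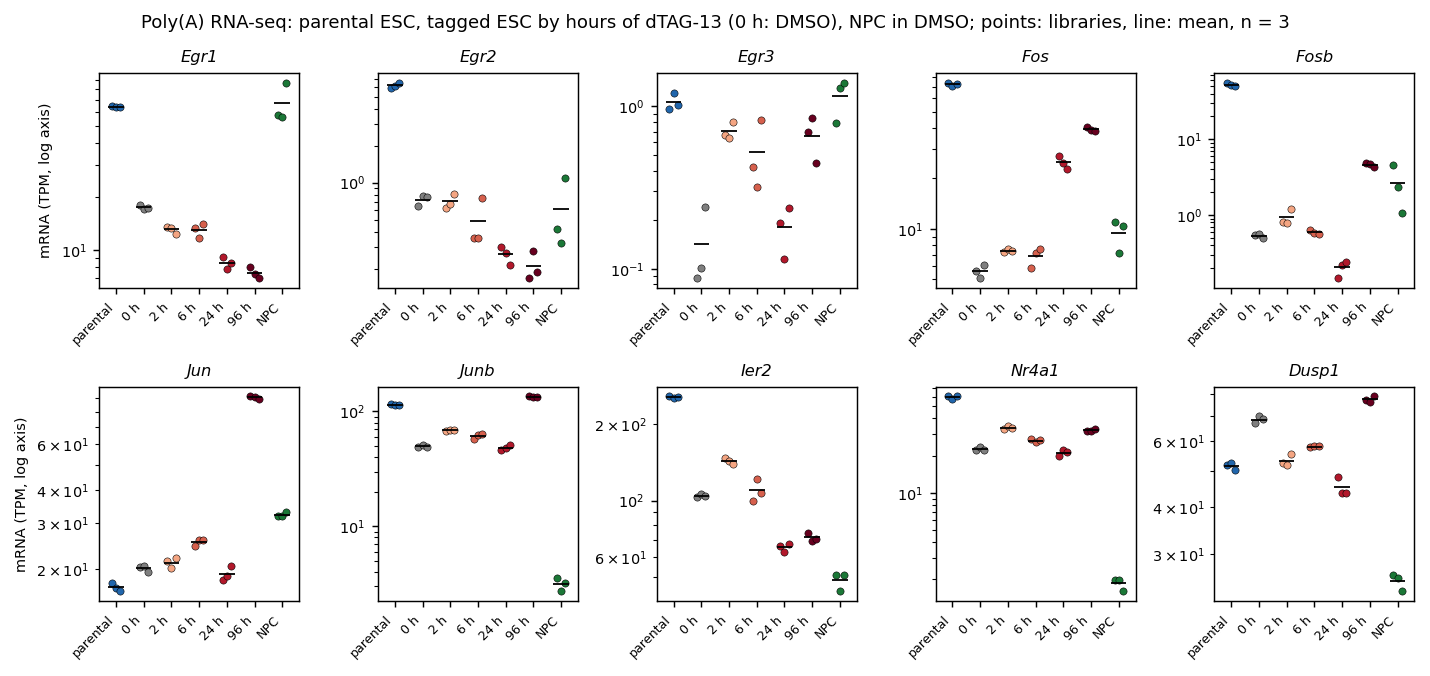
Poly(A) RNA in TPM (y axis, log scale) of the 10 genes in parental mESCs, tagged mESCs by hours of dTAG-13 (0 h is DMSO) and NPCs (x axis), with points for 3 libraries per group and lines for means. Fos is higher at 24 h and 96 h, Jun and Fosb are high at 96 h, and 8 genes are higher in parental mESCs than at 0 h.

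At 2 h 6 of the 10 genes were wholly above DMSO and 2 wholly below, against 16% and 19.9% of the 17922 genes tested. The counts were 5 and 2 at 6 h (24.9% and 20.2% of genes), 1 and 6 at 24 h (43.9% and 26.2%), and 7 and 3 at 96 h (44.4% and 38.8%). Of the 10 genes, 8 passed the filter on low values, as all tested genes did. Of these 8, the numbers wholly above and below DMSO were 5 and 2, 4 and 2, 1 and 5, and 6 and 2 at the 4 times. Median differences over the 10 were 0.42, 0.15, -0.33 and 0.66 at the 4 times, with all tested genes at -0.02, 0.03, 0.13 and 0.05. Centring libraries on their median gene moved the median of all tested genes from 0.13 to -0.16 at 24 h and from 0.05 to -0.23 at 96 h. The split of genes called higher and lower moved with it, from 1819 and 360 to 886 and 919 at 24 h, from 3634 and 2228 to 2713 and 3364 at 96 h, and from 139 and 34 to 92 and 44 at 6 h. In TT-SLAM-seq the split moved from 333 and 121 to 141 and 241 at 24 h, and from 50 and 26 to 37 and 31 at 6 h.

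**Figure D3:**
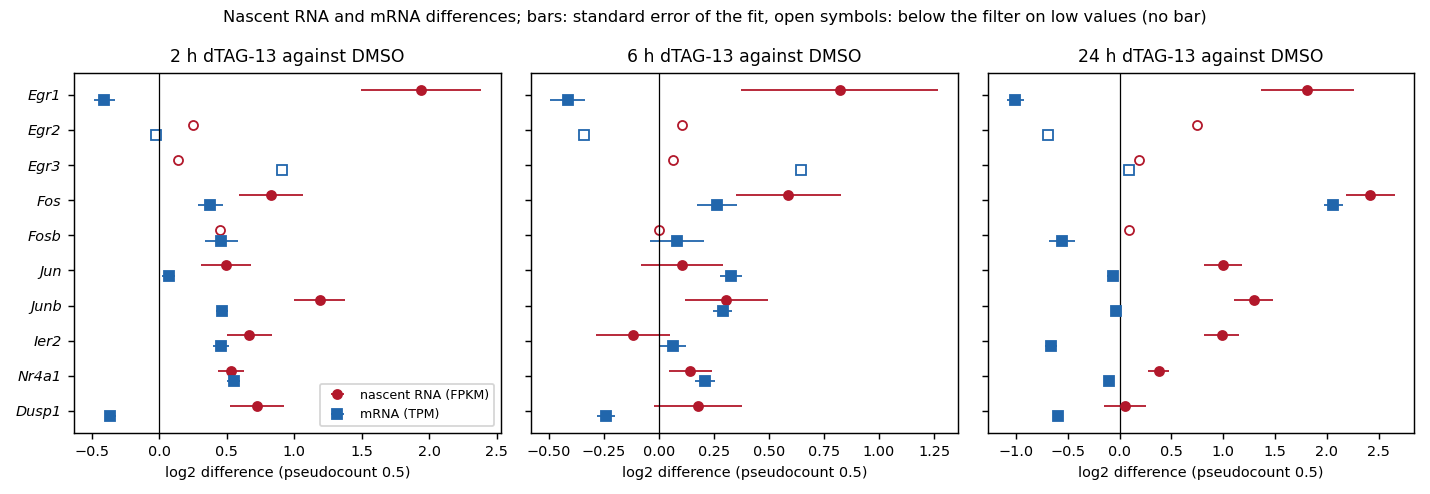
Log2 difference from DMSO (x axis) of nascent RNA (circles) and mRNA (squares) for the 10 genes (y axis) at 2 h, 6 h and 24 h of dTAG-13, with standard errors of the fit as bars and open symbols for genes below the filter on low values. At 24 h Egr1 and Ier2 have nascent RNA to the right of 0 and mRNA to the left, and Fos has both to the right.

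Among the 49 other immediate early genes tested in the mRNA time course, 1 rose and none fell at 2 h, none was called at 6 h (36 at an unadjusted p under 0.05 in limma), 1 rose and 7 fell at 24 h, and 23 rose and 8 fell at 96 h. Of all genes tested, 0.251%, 0.776%, 10.1% and 20.3% were called higher at the 4 times and 0.123%, 0.19%, 2.01% and 12.4% lower. At 6 h 7762 of the 17922 genes tested had an unadjusted p under 0.05. Nab2, a corepressor of EGR proteins and itself a target of EGR1, rose at 2 h from 8.64 ± 0.50 to 23.1 ± 1.3 TPM (1.37, limma adjusted p = 9.4e-08). At 24 h Myc fell from 125 ± 4.8 to 20.2 ± 1.85 TPM (-2.60), Fosl1, a FOS relative, fell by 2.07, and Spry4 fell by 2.05 (limma adjusted p = 1.8e-12, 2.8e-09 and 8.5e-11). Batf3 rose by 1.054, a call lost without DMSO replicate 1 or 24 h replicate 2, or when libraries were centred.

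At 96 h Gadd45g, a growth arrest gene, rose from 30.6 ± 2.2 to 318 ± 7.7 TPM (3.36, limma adjusted p = 8.1e-16), Fosl2 by 2.68 and Btg2 by 2.59. Spry4 fell by 3.89, Myc fell by 2.17 and Klf4 fell by 1.96. The list holds genes that also belong to pluripotency and differentiation programs, and the sum of 8 mESC markers at 96 h was 413 to 487 TPM against 4907 to 5329 TPM in DMSO.

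The 30 signalling genes gave no calls at 2 h, 6 h or 24 h in limma (10, 11 and 23 at an unadjusted p under 0.05). Over all 17922 genes tested, 5147, 7762 and 12582 had such a p. At 96 h 4 rose and 2 fell. Elk3, a ternary complex factor, rose by 2.32, the ERK-activated kinase gene Rps6ka3 by 1.82 and the receptor gene Fgfr1 by 1.62. Fgf4 fell from 134 ± 3.7 to 1.86 ± 0.07 TPM (-5.83, limma adjusted p = 1.7e-17), and Rps6ka5, a kinase of CREB and histone H3, by 1.07. The 8 heat shock genes likewise gave no calls up to 24 h (2, 3 and 8 at an unadjusted p under 0.05). At 96 h Bag3 rose by 1.79, Hspa1b by 1.20 and Hspa1a by 1.15, the last pair not when libraries were centred, and Hsph1 and Hsp90aa1 fell by 1.33 and 1.23.

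In the shREPEATS line 24 h of dTAG-13 left Fos, Jun, Junb and Nr4a1 above DMSO, and with Dox added these 4 genes were below the dTAG-13 group in every library. Fos measured 4.89, 5.55 and 5.2 TPM in DMSO, 11.6, 12.1 and 12.8 TPM with dTAG-13, and 5.89, 6.03 and 5.65 TPM with dTAG-13 and Dox. The differences were 1.15 ± 0.07 for dTAG-13 against DMSO and -1.0 ± 0.07 for added Dox. The Dox group was above DMSO without overlap.

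Jun measured 27.6, 29.7 and 29.5 TPM in DMSO, 41.0, 37.0 and 39.3 TPM with dTAG-13, and 29.5, 30.4 and 30.8 TPM with Dox added. Junb measured 33.8, 38.7 and 40.1 TPM, then 52.2, 52.7 and 50.8 TPM, then 39.4, 40.1 and 40.9 TPM in the same order. Nr4a1 measured 17.6, 19.0 and 17.8 TPM, then 25.1, 21.7 and 22.9 TPM, then 18.6, 20.4 and 19.3 TPM. For all 3 genes the Dox group overlapped DMSO, and the differences of dTAG-13 from DMSO were 0.43, 0.46 and 0.34.

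Fosb and Ier2 went the other way. Fosb measured 1.33, 1.87 and 1.53 TPM in DMSO, 1.13, 0.860 and 1.08 TPM with dTAG-13, and 1.64, 2.00 and 1.82 TPM with Dox added. Ier2 measured 56.6, 58.5 and 59.5 TPM, then 52.9, 52.3 and 51.7 TPM, then 61.0, 61.2 and 63.6 TPM. Both were lower with dTAG-13 than in DMSO (-0.44 ± 0.14 and -0.15 ± 0.04), and higher in the Dox group than with dTAG-13.

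Dusp1 measured 70.9, 80.0 and 81.1 TPM in DMSO, 82.7, 80.5 and 80.0 TPM with dTAG-13, and 78.2, 80.7 and 75.6 TPM with Dox added, and its groups overlapped throughout. Egr1 measured 5.28, 6.11 and 5.75 TPM in DMSO, 5.81, 5.14 and 5.65 TPM with dTAG-13, and 4.89, 5.66 and 7.08 TPM with Dox added, again with overlap. Its level of 4.89 to 7.08 TPM was below the 17.1 to 18.0 TPM of the tagged line in DMSO, but the libraries were made by different kits and were not compared by test. Egr2 and Egr3 stayed below 0.4 TPM and did not pass the filter.

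**Figure D4:**
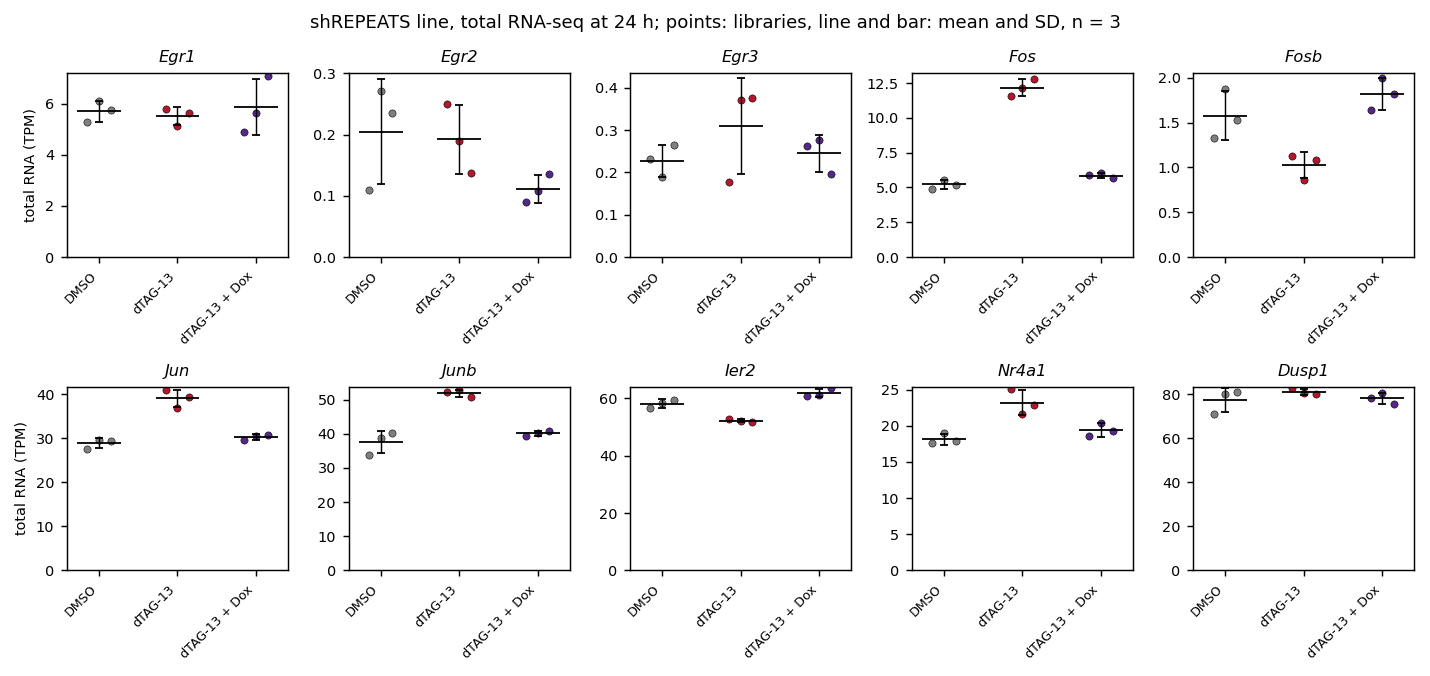
Total RNA in TPM (y axis) of the 10 genes in the shREPEATS line at 24 h in DMSO, dTAG-13 and dTAG-13 with Dox (x axis), with points for 3 libraries and line and bar for mean and SD. Fos, Jun, Junb and Nr4a1 are highest in the dTAG-13 group, and Ier2 and Fosb are lowest there.

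For dTAG-13 against DMSO, 4 genes were wholly above and 2 wholly below, against 45% and 14% of the 16166 genes tested. For added Dox it was 2 above and 5 below, against 22.8% and 36%. Among the 8 genes that passed the filter on low values, it was 4 above and 2 below for dTAG-13, and 2 and 4 for added Dox. Medians over the 10 genes were 0.11 and -0.14, with all tested genes at 0.14 and -0.04. After centring, the split of calls in all genes moved from 385 and 232 to 246 and 353 for dTAG-13 and from 241 and 317 to 293 and 252 for Dox. The 2 comparisons share the dTAG-13 libraries. The sum of mESC markers was 2429 to 2802 TPM in DMSO, 1258 to 1283 TPM with dTAG-13 and 2679 to 2728 TPM with Dox added, and that of fibroblast markers 111 to 120, 110 to 123 and 120 to 128 TPM, and their part in these values was not tested.

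Trim28 RNA in this line was 252, 283 and 276 TPM in DMSO, 213, 203 and 203 TPM with dTAG-13 and 285, 284 and 284 TPM with Dox added. Among 48 other immediate early genes tested, 1 rose and 2 fell with dTAG-13 (2.38% and 1.44% of all genes). Klf4 fell from 24.1 ± 1.2 to 6.07 ± 0.07 TPM (-1.91, limma adjusted p = 8.4e-10) and Spry4 by 1.39 (limma adjusted p = 1.6e-08). Rhob rose by 1.04, not without DMSO replicate 1 or after centring. In the Dox group Klf4 was above the dTAG-13 group by 1.96 and Spry4 by 1.23 (limma adjusted p = 6.2e-10 and 3.9e-08). These were the 2 calls of that list (1.49% of all genes were called higher and 1.96% lower). Among the 30 signalling genes, Fgf4 was the single call in both comparisons. It measured 62.8 ± 1.2 TPM in DMSO, 18.7 ± 0.57 TPM with dTAG-13 and 64.9 ± 1.8 TPM with dTAG-13 and Dox. No heat shock gene was called by limma in either (6 and 7 of 8 at an unadjusted p under 0.05). Over all 16166 genes tested, 9573 and 8646 had such a p.

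Parental mESCs held far more mRNA of most immediate early genes than the tagged line in DMSO. Fos measured 74.2, 71.6 and 73.3 TPM in parental cells against 5.64, 5.09 and 6.06 TPM, a difference of 3.60 ± 0.13. Fosb measured 55.2, 51.4 and 50.8 TPM against 0.546, 0.560 and 0.499 TPM (5.68 ± 0.33), and Egr1 64.5, 63.7 and 64.1 TPM against 18.0, 17.1 and 17.3 TPM (1.84 ± 0.14). For these 3 genes the parental libraries were also above every library of the dTAG-13 time course.

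Egr2 measured 5.91, 6.14 and 6.46 TPM and Egr3 0.970, 1.22 and 1.02 TPM in parental cells, both above the tagged line in DMSO. Junb measured 116, 113 and 114 TPM, Ier2 258, 254 and 257 TPM and Nr4a1 60.3, 57.4 and 60.3 TPM, with differences of 1.20, 1.29 and 1.36. Jun (17.7, 17 and 16.4 TPM) and Dusp1 (51.7, 52.4 and 50.1 TPM) were the exceptions, below the tagged line by 0.24 and 0.41. Of the 10 genes, 8 were wholly above and 2 wholly below, against 27.2% and 43.5% of the 17458 genes tested. Egr2, Egr3 and Fosb were below 1 TPM in the tagged line and passed the filter on low values only through parental and NPC libraries. After centring, the split of calls in all genes moved from 393 and 1598 to 624 and 1161, and the median of all genes from -0.09 to 0.10.

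The parental cells differed from the tagged line in several ways at once. They had no DMSO, their labels describe growth on feeders, and Trim28 mRNA was 1418, 1389 and 1387 TPM against 622, 622 and 626 TPM. The sum of fibroblast markers was 112 to 114 TPM against 24.1 to 24.8 TPM, with none of the 10 markers at 0 in parental cells and Lum at 0 in the tagged line. The tag, the culture and the vehicle cannot be told apart here. Other immediate early genes did not move one way, with 5 rising and 12 falling of 50 tested (2.25% and 9.15% of all genes). Klf4 rose by 2.88, Egr4 by 2.18 and Klf2 by 1.95, and Myc fell by 2.02, Phlda1 by 1.73 and Plk2 by 1.53, all with limma adjusted p of 7.8e-07 or less. Among the signalling genes Fgfr2 fell by 1.74, the single call, and no heat shock gene was called by limma (7 of 8 at an unadjusted p under 0.05). Over all 17458 genes tested, 11988 had such a p.

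Between NPCs and tagged mESCs in DMSO, 5 of the 10 genes were higher and 4 lower, shares close to those over all genes. The labels do not say whether the NPCs carried the degron tag. Egr1 measured 57.7, 55.9 and 86.9 TPM, Egr3 0.789, 1.29 and 1.39 TPM, and Fosb 4.52, 2.32 and 1.051 TPM, each above the tagged mESCs in DMSO by 1.88, 1.36 and 1.44. Junb at 3.58, 2.72 and 3.20 TPM and Nr4a1 at 1.96, 2.00 and 1.60 TPM were far below (-3.78 and -3.31, each ± 0.07). Those were the lowest levels of Junb and Nr4a1 in any group of the RNA-seq.

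Ier2 (50.7, 43.9 and 51.0 TPM) and Dusp1 (26.3, 25.8 and 23.8 TPM) were below mESCs by 1.10 and 1.42. Fos (11.0, 7.15 and 10.4 TPM) and Jun (32.0, 31.8 and 33.1 TPM) were above by 0.69 and 0.67, and Egr2 (0.424, 0.321 and 1.09 TPM) overlapped. Altogether, 5 genes were wholly above and 4 wholly below, against 49.3% and 39.3% of genes. After centring, the split of calls in all genes moved from 4522 and 3608 to 3302 and 4910. Of all genes tested, 25.9% were called higher and 20.7% lower. Of 50 other immediate early genes, 10 rose, with Nr4a2 (3.38), Nr4a3 (3.21) and Ier5 (2.29) highest, and 23 fell, with Klf2 (-7.16), Csrnp1 (-4.94) and Gadd45b (-4.53) lowest. Of the signalling genes 3 rose and 3 fell, and of the heat shock genes none rose and 4 fell.

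Across the poly(A) groups each gene had its own order of levels. Fos ran from parental (71.6 to 74.2 TPM) through 96 h and 24 h to NPCs, which overlapped the 2 h and 6 h groups, and then DMSO, which overlapped 6 h. Jun was highest at 96 h, followed by NPCs, 6 h, then 2 h with DMSO and 24 h overlapping in a chain, and parental cells lowest. Dusp1 was highest at 96 h, followed by DMSO, 6 h, 2 h with parental overlapping, 24 h and NPCs. Egr1 was highest in NPCs and parental cells, which overlapped, then in DMSO, then at 6 h and 2 h, which overlapped, and lowest at 24 h and 96 h, which also overlapped. Nr4a1 ran from parental cells through 2 h and 96 h, which overlapped, to 6 h, DMSO and 24 h, and NPCs were far below. Junb was highest at 96 h, then in parental cells, and lowest in NPCs.

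Whether ChIP-seq results were among those seen before the genes were chosen was not recorded. The permutation tests at the promoters are therefore no independent test. Fold enrichment is that of the highest deposited peak within 1 kb of the gene start, with 0 where no peak was called, and peaks were called in each library on its own. After 24 h of dTAG-13, 9 of the 10 genes had lower RNAPII enrichment in both libraries than in either DMSO library, and all 10 had lower MED23. With 2 libraries against 2 an exact permutation test cannot go below p = 0.33 (two-sided), the value these genes had, so the differences did not pass a test. Nearly all promoters moved the same way, 85.1% of 10055 genes for RNAPII (3.03% higher) and 93.9% of 13585 for MED23 (0.412% higher).

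RNAPII enrichment at Dusp1 was 71.8 and 65.9 in DMSO, the highest of the 10 genes, against 9.03 and 7.98 in treated cells. Ier2 had 56.5 and 53.7 against 24.0 and 18.5, and Junb 39.6 and 36.1 against 12.6 and 12.2. At Fos it was 29.7 and 30.4 against 9.55 and 8.20. Jun (25.1 and 25.3 against 17.3 and 11.3) and Fosb (20.3 and 20.3 against 12.4 and 10.5) changed least among genes with a peak in every library. At the deposited start, Egr1 (4.56 and 4.00), Egr3 (6.73 and 4.79) and Nr4a1 (4.08 and 2.77) had peaks in DMSO and none after dTAG-13. Egr2 had none there in any library. At the RefSeq start of Nr4a1 RNAPII peaks remained after dTAG-13 (5.52 and 4.65).

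Set against 4793 genes with an RNAPII peak in every library, whose median ratio of dTAG-13 to DMSO was 0.488, Dusp1 was 8.10-fold lower, with 0.480% of those genes lower still. Fos was 3.38-fold lower (16.6% of genes lower still), Junb 3.06-fold, Ier2 2.60-fold, Fosb 1.78-fold and Jun 1.76-fold. Genes that lost their peak after dTAG-13 are not in this ranking. A fall as large as that of Dusp1 could therefore be ranked only for genes with high enrichment in DMSO. Fos, whose nascent RNA at 24 h was above DMSO by 2.42, had less RNAPII enrichment at its start in the same condition. Dusp1 had nascent RNA among the DMSO values at 24 h.

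MED23, the subunit of the Mediator coactivator through which ELK1 reaches RNAPII, was enriched at all 10 genes in DMSO. Fos had 47.4 and 41.9 against 15.4 and 17, the highest remaining value of the 10. Egr3 had 34.0 and 37.5 against 4.14 and 4.38, and Egr1 28.9 and 28.6 against 5.43 and 5.23. Fosb had 43.7 and 48.6 against 9.76 and 8.38, Jun 30.2 and 31.7 against 8.72 and 9.57, and Junb 23.9 and 27.9 against 4.06 and 5.01. For each of these genes the groups were far apart and replicates close together.

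Dusp1 had MED23 enrichment of 24.9 and 27.5 against 5.52 and 6.32, Ier2 21.2 and 19.3 against 6.27 and 6.01, and Nr4a1 14.4 and 17.4 against 5.26 and 5.51. Egr2 had 10.1 and 9.65 in control libraries and no peak in treated ones. Among 3706 genes with a MED23 peak in every library the median ratio was 0.347, and Egr3 at 8.39-fold lower had 1.08% of genes lower still. Junb followed at 5.71-fold and Egr1 at 5.40-fold, while Fos at 2.75-fold lay near the middle, with 52.7% of genes lower. Genes that lost their MED23 peak are again left out, so large falls were ranked only for genes that were high in DMSO.

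**Figure D5:**
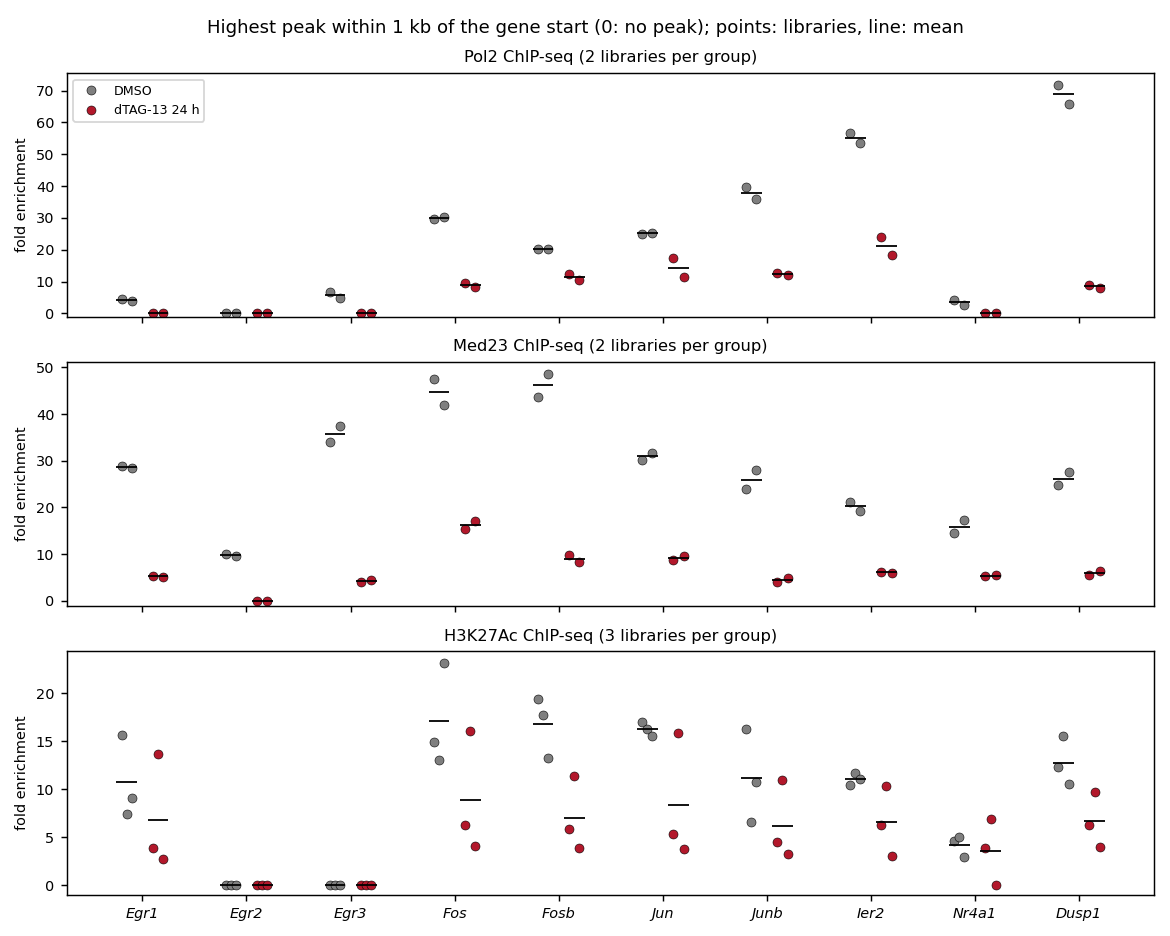
Fold enrichment (y axis) of the highest RNAPII (Pol2), MED23 (Med23) and H3K27Ac peak within 1 kb of the start of each gene (x axis), DMSO beside 24 h of dTAG-13, with points for libraries, lines for means and 0 for no peak. RNAPII and MED23 points after dTAG-13 lie below DMSO at each gene with a peak, and 1 H3K27Ac library after dTAG-13 lies near DMSO.

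In DMSO, RNAPII enrichment at the deposited start was above the median of tested genes with a peak at 6 of the 10 genes. The exceptions were Egr1, Egr2, Egr3 and Nr4a1. At its RefSeq start, examined after seeing the data, Nr4a1 had 19.3 and 16.2, above that median. MED23 enrichment was above the median at all 10. Median RNAPII enrichment over the 10, zeros included, was 22.7 and 22.8 in control libraries against 9.29 and 8.09 in treated ones, where tested genes with a peak had medians of 8.56 and 8.25 and of 5.66 and 5.54. Median MED23 enrichment was 26.9 and 28.2, then 5.47 and 5.76, with tested genes that had a peak at 7.89 and 7.71, then 4.28 and 4.43. A peak was called at 9 of 10 genes for RNAPII in each DMSO library and at 6 of 10 in each dTAG-13 library, while the share of 17922 tested genes went from 54.2% and 54.3% to 30.9% and 28.2%. For MED23 it was 10 and then 9 of 10, against 73.9% in both DMSO libraries and then 25.0% and 22.5%. The number of peaks fell with treatment, from 19853 and 19194 to 8182 and 7689 for RNAPII and from 63045 and 58925 to 15335 and 14551 for MED23. The deposited enrichments carry no scaling between libraries, and the part of this shift in the values of the 10 genes was not tested.

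H3K27Ac, a mark of active promoters and enhancers, gave a less uniform picture. Fosb had 19.5, 17.7 and 13.2 in control libraries against 5.87, 11.4 and 3.89 in treated ones, Ier2 10.4, 11.6 and 11.1 against 6.31, 10.4 and 3.01, and Dusp1 12.3, 15.5 and 10.5 against 6.23, 9.75 and 4.02. These 3 genes were lower without overlap (exact permutation p = 0.1, two-sided and unadjusted over the 10 genes, the smallest that 3 libraries against 3 allow), against 11.4% of 12947 genes lower and 0.131% higher. Fos (15.0, 13 and 23.2 against 6.30, 16.1 and 4.13), Jun (17, 16.3 and 15.6 against 5.36, 15.9 and 3.81), Egr1, Junb and Nr4a1 overlapped. Egr2 and Egr3 had no peak within 1 kb of the deposited start.

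Replicate 2 of dTAG-13 stood apart from the other dTAG-13 libraries, with 117348 peaks against 30259 and 45662, where the DMSO libraries had 88050 to 117475. Without it, 7 of the 10 genes were lower without overlap, against 65.4% of 12596 genes. H3K9me3, the heterochromatin mark that TRIM28 helps to place, had no peak within 1 kb of any of the 10 starts in any of the 6 libraries, against 0.452% to 5.12% of tested genes with one. Of 1401 genes with a value, 0.857% were higher and 23.8% lower without overlap.

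When windows around every RefSeq start were added, a choice made after seeing the data, Egr2 gained H3K27Ac peaks of 3.68, 3.91 and 2.48 in DMSO and none after dTAG-13, and kept MED23 peaks after dTAG-13 of 5.96 and 4.73. Nr4a1 gained RNAPII peaks of 19.3 and 16.2 in control and of 5.52 and 4.65 in treated libraries. These starts lie inside the deposited gene spans, away from their first base, and no other RefSeq start was found for Nr4a1.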

How the data were processed

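Poly(A) RNA, total RNA, nascent RNA and ChIP DNA were sequenced; Hi-C and single-cell libraries were not analysed here. Per the submitters' processing notes, tools included cutadapt (2.4), STAR (2.7.5a), StringTie (2.0.6), HOMER (4.10), GATK (4.1.4.1), deepTools (3.4.3), BWA, SAMtools and MACS2, and the build was mm10. The authors deposited StringTie TPM and read coverage for RNA-seq, and FPKM per gene span for TT-SLAM-seq. They also deposited ChIP-seq peaks called per library, with fold enrichment and the -log10 q-value of each peak, without scaling between libraries.

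From these, log2(value + 0.5) was fitted in limma (3.58.1, R 4.3.3; group as the only term, trended variance), for genes with at least 0.5 FPKM or 1 TPM in at least 3 libraries. Genes were called at a Benjamini-Hochberg adjusted p below 0.05 over all genes tested and more than a 2-fold change; no such call is reported for the 10 genes. TT-SLAM-seq, the time course, the shREPEATS line, and the lines (parental, tagged in DMSO, NPC) were fitted separately. TPM and FPKM are relative to the other RNA of a library, so a general change in RNA output is not seen. Where whole reads were recovered from FPKM, 100% of low values (up to 20 reads) lay within 0.1 of a whole number. For each promoter the highest peak within 1000 bp of the gene start was taken, and libraries were compared by an exact two-sided permutation test. The scripts were tested on simulated data, and python (3.11.15) with pandas (2.3.3) was used elsewhere.

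Groups came from the sample labels. The labels do not say that replicates were separate cultures, so p-values measure the spread between these samples, which may be technical. The 10 genes, the lists of other immediate early genes, of signalling genes and of heat shock genes, and the cell type markers were chosen with earlier results of these data known. Named were the 10 genes, Trim28, up to 3 called genes per direction and list whose groups did not overlap, and the 5 genes most like the 10 in each time course. Alternatives were other pseudocounts, other filters, centring libraries on their median gene, the replicate number as a block, leaving out each library, and other peak thresholds and windows. The authors' own comparisons were not used.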

Additional observations from a re-analysis of the deposited data

Results flagged for a closer look

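In 12 of 100 pairings of a gene with a pair of contrasts, every library lay on one side of DMSO in one contrast and on the other side in the other. The same count over all genes was not made, so nothing particular to these genes is read from it. These differences were not tested, and the time course contrasts share their DMSO libraries. Values are differences in mRNA on the log2 scale.

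For Fosb the difference was 0.46 at 2 h, 0.0824 at 6 h and 2.31 at 96 h, against -0.56 at 24 h. The 6 h value turned to -0.01 when libraries were centred on their median gene. For Ier2 it was 0.46 at 2 h, against -0.67 at 24 h and -0.54 at 96 h.

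For Nr4a1 it was 0.55 at 2 h, 0.21 at 6 h and 0.48 at 96 h, against -0.10 at 24 h. In the shREPEATS line at 24 h it was 0.34. For Dusp1 it was -0.36 at 2 h, -0.24 at 6 h and -0.60 at 24 h, against 0.18 at 96 h, the last of which turned to -0.10 after centring.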

How the results depend on the processing

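Directions of the median over the 10 genes held under other pseudocounts, filters and left-out libraries. Centring libraries on their median gene turned it to -0.0576 in the shREPEATS line with dTAG-13 (0.11 before) and to -0.16 in NPCs (0.23 before). After centring it was 0.0542, -0.62 and 0.39 at 6 h, 24 h and 96 h of RNA-seq, -0.0716 for added Dox and 1.52 for parental cells. With a pseudocount of 1 it was 0.34, -0.23 and 0.50 at 2 h, 24 h and 96 h of RNA-seq. With a pseudocount of 0.1 it was 0.96 at 96 h, 0.18 and -0.23 in the 2 shREPEATS comparisons and 1.62 for parental cells. Leaving out 1 library gave 0.35 to 0.44 at 2 h of RNA-seq, 0.61 to 0.72 at 96 h and 1.31 to 1.37 for parental cells. Of single genes, 11 differences turned sign after centring, 1 with a pseudocount of 1 and 8 when some 1 library was left out (15 cases of a gene and a library).

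Genes called in TT-SLAM-seq (30, 76 and 454 at 2 h, 6 h and 24 h) became 72, 138 and 1102 with a pseudocount of 0.1. At 6 h and 24 h a pseudocount of 1 gave 45 and 241, and without a filter 2 h and 6 h had 19 and 46. In RNA-seq at 2 h and 6 h (67 and 173 called), a pseudocount of 0.1 gave 111 and 313, and a pseudocount of 1 gave 89 at 6 h. Keeping genes with a mean of 5 or more gave 9, 10 and 60 in TT-SLAM-seq, 31, 58, 985 and 3552 in the RNA-seq time course, 263 and 237 in the shREPEATS line, 944 for parental cells and 4759 for NPCs. Leaving out 1 library gave 11 to 57 genes at 2 h of TT-SLAM-seq, with 17 without DMSO replicate 2, 57 without DMSO replicate 3, and 11 and 15 without 2 h replicates 1 and 2. At 6 h it gave 27 to 135, with 27, 29 and 135 without DMSO replicates 1, 2 and 3, and 29 and 36 without 6 h replicates 1 and 3.

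Of calls in the lists and Trim28, 7 were lost when some 1 library was left out (20 cases of a call and a library), 9 after centring, 6 with a pseudocount of 1 and 1 without a filter, and no direction turned. With a pseudocount of 1 the lost calls in TT-SLAM-seq were Spry4 at 6 h and Myc, Klf4 and Fgf4 at 24 h. In RNA-seq they were Batf3 at 24 h and Rps6ka5 at 96 h. With the replicate number as a block, genes called were 19 higher and 12 lower for 2 h, 45 and 21 for 6 h, then 334 and 128 for 24 h. Deviations of same-numbered samples correlated at -0.205 to 0.177, so the samples share only a number.

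In ChIP-seq, the number of the 10 genes with a peak after dTAG-13 minus that in DMSO was -0.33 for H3K27Ac, -3 for RNAPII and -1 for MED23. Peaks with -log10 q of at least 10 gave -1.67, 0 and -4, and a window of 250 bp gave -1.67 for H3K27Ac and -2 for MED23. The same number of peaks in every library gave -0.5 for RNAPII. Windows around every RefSeq start, chosen after seeing the data, gave -1, -2.5 and 0. Without 1 library, H3K27Ac ranged from -0.5 to 0. The cause of these shifts was not tested. Depth limits Egr2, Egr3 and Fosb most, which had 1 to 14 reads per DMSO library in TT-SLAM-seq.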

Other observations

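The genes whose mRNA followed the mean of the 10 most closely over the 15 time course libraries, among 17914 genes, were Rab4a (Pearson r = 0.98), Phlda1 (0.98), Impact (0.98), Hexim1 (0.97) and Purb (0.97). Pairs of the 10 genes themselves ranged from r = -0.94 to 0.98 in those libraries, with a median of 0.21. That mean is therefore not a profile that all 10 genes share. Rab4a had means of 39.0, 43.6, 38.9, 31.2 and 48.8 TPM in DMSO and the 4 treated groups in order of time, and Phlda1 of 27.3, 35.4, 29.5, 13.6 and 60.0 TPM. Over the 12 TT-SLAM-seq libraries, among 13350 genes, the closest were Gm23100 (0.95, listed at 0 in DMSO), Fabp3 (0.93), Dusp5 (0.93), Bcar1 (0.92) and Zbtb43 (0.91). Pairs of the 10 genes ranged there from r = 0.07 to 0.94, with a median of 0.76. The libraries fall into groups by treatment, so these values are descriptions without a test.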
